A study of Homo sapiens with 40 samples.

Results

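Of the 40 libraries in the series, 4 are described here: 2 from BT474 collected 12 h after HRG (heregulin, also called neuregulin 1; HRG-BT474) and 2 from BT474 collected 12 h after EGF (epidermal growth factor; EGF-BT474). They were chosen by their titles alone, and HRG-BT474 was compared directly with EGF-BT474 over all 25146 genes that passed the filter on low counts in this line. BT474 is an established HER2-positive breast cancer cell line of luminal type that responds to trastuzumab, and BT474R is a single clone of it that was selected by growth in trastuzumab. RNA from both lines was sequenced before treatment and after 1 h, after 12 h and after 24 h, as 2 libraries in each of 20 groups. All cells were first starved of serum for 14 to 16 h, and fresh starvation medium then carried EGF at 50 ng/mL, HRG at 10 ng/mL, or water as the vehicle. The ligands were given at different doses, each at 1 dose only, so every statement on extent compares those doses and not the ligands over a range. Nothing in the labels or methods says that the libraries of a group came from separate passages or days. The p-values therefore measure the spread between libraries of a group, estimated over all libraries fitted together, which may be partly technical.

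EGF binds EGFR (HER1), whereas HRG binds HER3 and HER4, the products of ERBB3 and ERBB4. HER2, the product of ERBB2, has no known ligand of its own and signals as the partner of the other receptors. Both ligands are known to act through the RAS/MAP kinase and PI3K/AKT routes, with HER3 carrying many docking sites for PI3K, and a luminal HER2-positive cell can answer either ligand with growth and with a shift in its keratin and steroid receptor genes.

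The 4 libraries held between 20662109 and 28933375 counts on genes, the EGF-BT474 libraries being shallower than both HRG-BT474 libraries. The markers of luminal HER2-positive epithelium were all measured and summed to between 15804 and 16916 CPM (counts scaled to a common library size) in the 6 libraries at 12 h. Markers of leukocytes summed to between 3.43 and 4.88 CPM and those of endothelium to between 16.8 and 20.5 CPM. Fibroblast markers, of which POSTN, THY1 and FAP had no count, summed to between 97.2 and 104 CPM with vehicle, 81.9 and 89.9 CPM with EGF, and 74.8 and 76.8 CPM with HRG. Of the 30 markers of other cell types 16 passed the filter on low counts and none was called between HRG and EGF. Against vehicle, 1 fibroblast marker was called lower with EGF and 1 with HRG, and 2 endothelial markers were called higher with HRG. The part of other cell types in the results was not tested.

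HRG-BT474 differed from EGF-BT474 at 545 genes, 2.17% of those tested, with 306 higher with HRG (1.22%) and 239 lower (0.95%). A gene was called differentially expressed (a DEG) at an adjusted p under 0.05 (edgeR's quasi-likelihood test, adjusted by Benjamini-Hochberg over all genes tested). Keratin 17, the neural adhesion molecule L1CAM and the matrix protein EFEMP1 were among the most raised DEGs, and GPAT3, IGSF21 and MYRIP among the most lowered. The median size over the DEGs was 0.28 on the log2 scale, 75 DEGs differed by over 1.5-fold (48 higher, 27 lower) and 25 by over 2-fold (17 higher, 8 lower). Both HRG libraries lay outside the range of both EGF libraries for all 545, but so they did for 44.1% of all tested genes, which is the background for that count. At an unadjusted p under 0.05 there were 3092 genes, 1647 higher and 1445 lower. Leaving out 1 library cut the DEGs to 97 higher and 53 lower (without EGF replicate 1), 102 and 63 (without HRG replicate 2), 151 and 101 (without EGF replicate 2) or 206 and 137 (without HRG replicate 1).

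Whether the ligands differed in extent or in direction was read from the vehicle libraries at 12 h. The comparisons of each ligand with vehicle share the same vehicle libraries, so the classes that follow are descriptions without a test. EGF changed 4030 genes against vehicle (16%, with 9.04% higher and 6.99% lower) and HRG 6482 (25.8%, with 13.3% higher and 12.5% lower). Among the 545 DEGs, 360 (66.1%) had been changed by both ligands in one direction with HRG further from vehicle, 203 of them upward and 157 downward. A further 146 (26.8%) were called with HRG alone, 14 (2.57%) with EGF alone, and 20 (3.67%) with neither. Only 5 were changed by both in one direction with EGF further. None was called in opposite directions against vehicle. Leaving out 1 library at a time moved these counts to between 110 and 291 with HRG further, 30 and 162 with HRG alone, 1 and 7 with EGF alone, 0 and 26 with neither, and 2 and 4 with EGF further.

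**Figure D1:**
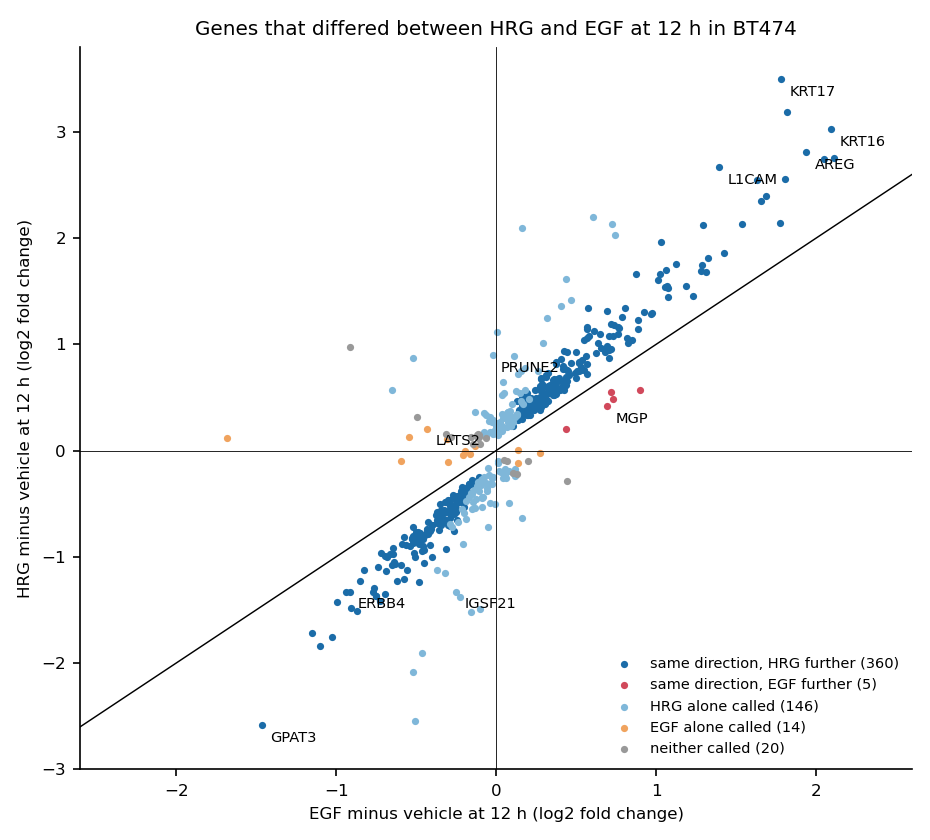
Log2 fold change against vehicle at 12 h with EGF (horizontal axis) and with HRG (vertical axis) for the genes that differed between HRG-BT474 and EGF-BT474, coloured by class with the number of genes of each class in brackets; the diagonal marks equal changes. Of the 545 genes, 471 have an HRG change of the same sign as the EGF change and larger, and 4 genes at the detection limit in a group are not drawn.

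In the 360 genes moved further by HRG, the median size of the change against vehicle was 0.37 log2 for EGF and 0.66 log2 for HRG, and the EGF change was 57.1% of the HRG change at the median (quartiles 49.6% and 64.6%). These genes were selected for a difference between the ligands. Over all 3609 genes called with both ligands, the EGF change was 79.2% of the HRG change at the median (quartiles 67.3% and 94.5%), and HRG was further for 2905 of them (80.5%). Calls against vehicle were also set beside the direct calls between the ligands, which 2.17% of all tested genes had. Of 2873 genes called against vehicle with HRG and not with EGF, 146 (5.08%) were called between the ligands. So were 14 (3.33%) of 421 called with EGF alone and 365 (10.1%) of the 3609 called with both. With 2 libraries a group these are the shares detected, and genes without a direct call may still differ.

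By position alone, with no calls against vehicle, the HRG mean was further than the EGF mean on the same side of vehicle for 471 DEGs (86.4%), the vehicle mean fell between the ligands for 63 (11.6%), and EGF was further for 11 (2.02%). The 63 with vehicle between comprise 35 of the 146 called with HRG alone, 8 of the 14 called with EGF alone and all 20 called with neither. When each ligand was set against a vehicle library of its own, so that the comparisons shared none, HRG was further for 86.9% or 86.3% of the genes called in that refit, a set other than the 545, depending on which vehicle library went with which ligand.

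Of the 4 receptors, EGFR was higher with HRG than with EGF and ERBB2, ERBB3 and ERBB4 were lower. ERBB4, the receptor kinase that binds HRG directly, had 40.7 and 39.3 CPM with vehicle, 21.2 CPM in each EGF library, and 16.03 and 15.87 CPM with HRG. The 3 groups did not overlap, and ERBB4 fell with both ligands, by 0.92 log2 for EGF and by 1.33 log2 for HRG. The direct difference was -0.41 ± 0.09 (log2, SE, adjusted p = 0.00397 in edgeR's quasi-likelihood test).

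ERBB3, whose kinase is weak and whose partner is HER2, had 287 and 293 CPM with vehicle, 256 and 258 CPM with EGF and 219 and 222 CPM with HRG, again in 3 groups that did not overlap. HRG lay lower than EGF by 0.22 ± 0.04 on the log2 scale (adjusted p = 0.000368, edgeR). ERBB2 stood apart in pattern: its 8244 and 8241 CPM with EGF lay within the vehicle range of 8098 to 8268 CPM, and both HRG libraries were below it, at 7619 and 7669.6 CPM. That difference was small, 1.08-fold (adjusted p = 0.0099, edgeR).

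EGFR, the receptor for EGF itself, had 95.6 and 93.3 CPM with vehicle, 93.4 and 106 CPM with EGF, and 124 and 119 CPM with HRG. Only HRG raised it against vehicle in a call (0.36 log2, adjusted p = 2.05e-05, edgeR), and it was 1.22-fold higher with HRG than with EGF (adjusted p = 0.00716). The 1 adaptor called was PTPN11, which encodes the phosphatase SHP2, with 345 and 356 CPM with EGF against 382 and 393 CPM with HRG. Of the list of 19 ERBB receptors and adaptors, 2 were higher, 3 lower and 14 not called, with a median of -0.03 log2, beside 0 over all tested genes. The calls were 26.3% of that list, beside 2.17% of all tested genes. Without EGF replicate 1 the calls of EGFR, ERBB4 and PTPN11 were lost (adjusted p = 0.403, 0.0757 and 0.281, edgeR), without HRG replicate 1 that of EGFR (0.103), without HRG replicate 2 those of ERBB4 and PTPN11 (0.0856 and 0.272), and without EGF replicate 2 that of PTPN11 (0.0509). ERBB2 lost its call without any 1 of the 4 libraries (adjusted p from 0.0879 to 0.144), and ERBB3 kept its call in each case.

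Among the 10 measured ligands of these receptors, AREG and BTC were higher with HRG (20%, beside 1.22% of all tested genes). None was lower, and the median was 0.27 log2. AREG, which encodes amphiregulin, a ligand of EGFR, had 3.51 and 3.08 CPM with vehicle, 12.3 and 13.2 CPM with EGF, and 22.2 and 24.1 CPM with HRG. The 3 groups did not overlap, and AREG was 1.83-fold higher with HRG than with EGF (log2 0.87 ± 0.10, adjusted p = 1.84e-07, edgeR). BTC, encoding betacellulin, which binds EGFR and HER4, had 3.58 and 2.54 CPM with vehicle, 4.08 and 3.45 CPM with EGF and 6.603 and 5.951 CPM with HRG. Its vehicle and EGF libraries overlapped, and its call was lost without any 1 of the 4 libraries (adjusted p from 0.0552 to 0.2, edgeR). EGF, TGFA, EREG, EPGN, HBEGF, NRG2, NRG3 and NRG4 were not called.

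**Figure D2:**
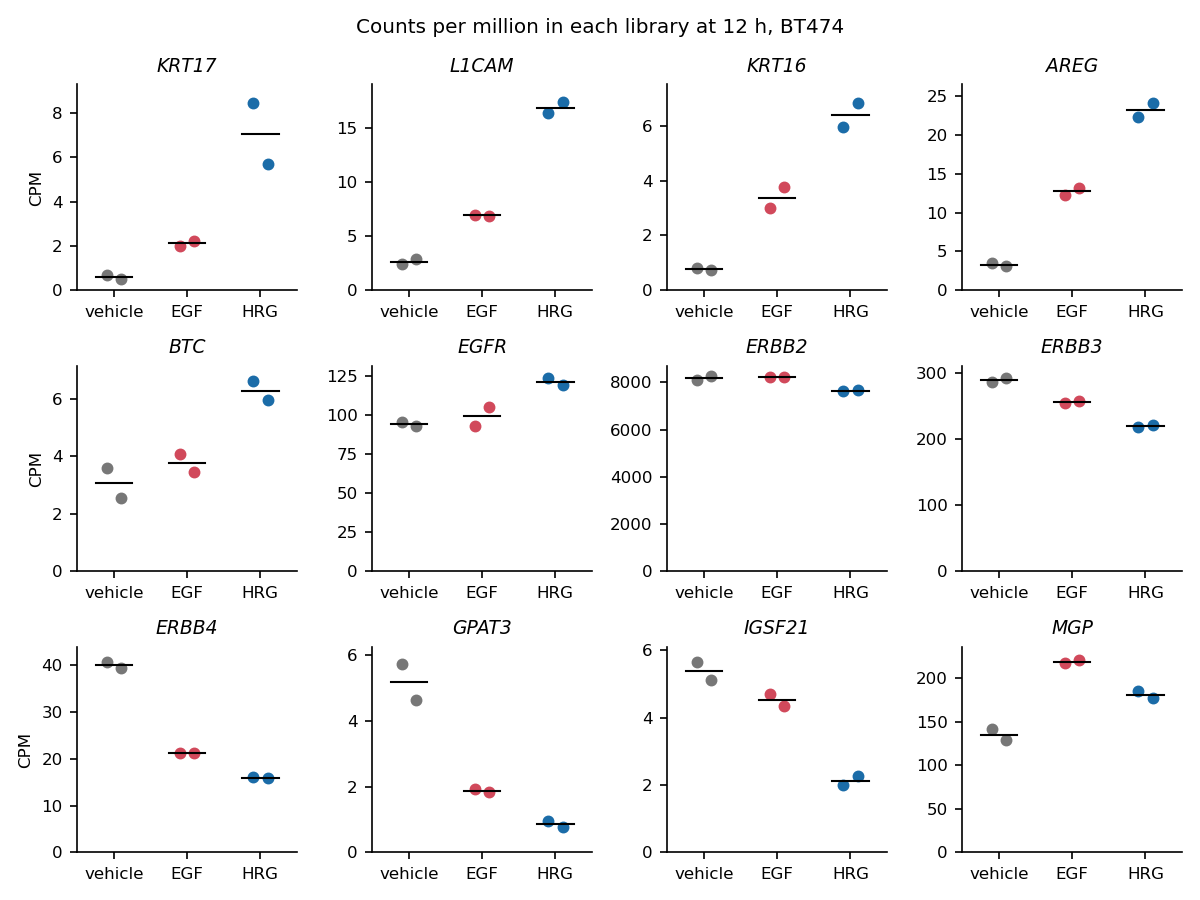
CPM in each of the 6 BT474 libraries at 12 h for 12 genes, with a point per library and a line at the mean of the 2 libraries of a group; each vertical axis starts at 0. AREG, KRT17, L1CAM and KRT16 step up from vehicle to EGF to HRG, ERBB3, ERBB4 and GPAT3 step down, IGSF21 is lowest with HRG, and MGP is highest with EGF.

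The promoter of AREG is shown because AREG had the lower adjusted p of the ligand genes called, and its promoter is known to respond to cAMP through a cAMP response element (CRE). The 250 bases before its start lie at chr4:74444886-74445135 on the plus strand of GRCh38.p14 (RefSeq), with the match to TGACGTCA in capitals:

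AREG: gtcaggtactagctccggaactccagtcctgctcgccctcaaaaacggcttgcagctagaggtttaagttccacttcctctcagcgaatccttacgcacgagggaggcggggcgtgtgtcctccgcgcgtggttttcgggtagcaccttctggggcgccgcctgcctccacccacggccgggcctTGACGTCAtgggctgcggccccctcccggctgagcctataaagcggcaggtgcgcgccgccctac

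The match begins 65 bases before the start, and 1.77% of the 27305 promoters of this length in the table hold the same letters on either strand. It is a match of letters and not a measured site.

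Keratins of basal and squamous epithelium were higher with HRG where they were called. Of 23 basal and squamous genes tested, 5 (21.7%) were higher with HRG (KRT17, KRT16, KRT4, KRT80 and KRT15), beside 1.22% of all tested genes. None was lower and 18 were not called. Of the 23, 13 had a positive difference, with a median of 0.05 log2. Against vehicle the list median was 1.13 log2 with EGF and 0.97 log2 with HRG. KRT17, a keratin of basal and wound-edge epithelium, had 0.710 and 0.499 CPM with vehicle, 2.02 and 2.22 CPM with EGF, and 8.43 and 5.67 CPM with HRG. All HRG values were above all EGF values, and the difference was 3.29-fold (log2 1.72 ± 0.21, adjusted p = 1.14e-06, edgeR). KRT16, a keratin of stressed epidermis, had 0.816 and 0.749 CPM with vehicle, 3.01 and 3.75 CPM with EGF and 5.95 and 6.84 CPM with HRG. KRT4, a keratin of mucosal squamous epithelium, was called with HRG alone: 1.49 and 2.496 CPM with vehicle overlapped 2.69 and 2.17 CPM with EGF, below 4.43 and 4.89 CPM with HRG. The call of KRT16 was lost without EGF replicate 1 (adjusted p = 0.129, edgeR), that of KRT4 without EGF replicate 2 (0.163), and both without HRG replicate 2 (0.0878 and 0.147).

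The simple keratins that mark luminal cells moved the same way at far higher counts. KRT8 had 1531 and 1581 CPM with vehicle, 2079 and 2122 CPM with EGF, and 2608 and 2687 CPM with HRG, a 1.26-fold step from EGF to HRG (adjusted p = 1.31e-09, edgeR). KRT18, its partner in the filament, was 1.25-fold higher and KRT19 1.15-fold higher with HRG. In the list of 25 luminal and steroid receptor genes these 3 and AGR2 were higher, and ESR1, PGR and TFF3 were lower, with a median of -0.03 log2. The calls were 28% of that list, beside 2.17% of all tested genes.

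ESR1, the oestrogen receptor, fell from 119 and 116 CPM with vehicle to 78.6 and 86.5 CPM with EGF and to 64.9 and 65.1 CPM with HRG. PGR, the progesterone receptor and a classical oestrogen target, fell from 644 and 638 CPM to 349 and 373 CPM with EGF and 279 and 309 CPM with HRG. Both were thus reduced by both ligands, with the HRG libraries lowest. TFF3, a secreted trefoil peptide, had 97.3 and 99.0 CPM with vehicle and 103 and 101 CPM with EGF, a change that was not called, and was lower with HRG at 87.7 and 86.6 CPM. The PGR call was lost without HRG replicate 1 or EGF replicate 2 (adjusted p = 0.0682 and 0.0531, edgeR), that of TFF3 without EGF replicate 1 or HRG replicate 2 (0.128 and 0.116), and ESR1 kept its call without each of the 4.

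Of 27 migration and invasion genes, 5 (18.5%) were higher with HRG, beside 1.22% of all tested genes, and none lower, with a median of 0.15 log2. L1CAM, an adhesion molecule of neurons that invasive carcinomas also express, had 2.45 and 2.87 CPM with vehicle, 7.002 and 6.909 CPM with EGF and 16.3 and 17.4 CPM with HRG. The step from EGF to HRG was 2.42-fold (log2 1.28 ± 0.12, adjusted p = 3.33e-09, edgeR). TNC, encoding the matrix glycoprotein tenascin C, rose from 154 and 152 CPM with vehicle to 375 and 386 CPM with EGF and 483 and 498 CPM with HRG. LAMB3, a chain of laminin 332 in the epithelial basement membrane, was 1.45-fold higher with HRG, and the integrin chains ITGB4 and ITGB1, receptors for such matrices, were higher by 0.24 and 0.17 log2. The LAMB3 call was lost without EGF replicate 1, EGF replicate 2 or HRG replicate 2 (adjusted p from 0.0595 to 0.0818, edgeR).

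Mitosis genes held 9 calls of 38 (23.7%), all higher with HRG, beside 1.22% of all tested genes, and 36 of the 38 had a positive difference, with a median of 0.16 log2. ANLN, the anillin of the contractile ring, had 137 and 135 CPM with vehicle, 166 and 188 CPM with EGF and 217 CPM in each HRG library (log2 0.30 ± 0.04, adjusted p = 4.46e-05, edgeR). CDK1, the kinase that starts mitosis, had 62.2 and 55.7 CPM with vehicle, 72.6 and 67.6 CPM with EGF and 80.1 and 86.1 CPM with HRG. UBE2C, an E2 enzyme of the anaphase-promoting complex, had 44.3 and 47.9 CPM with vehicle, overlapping 47.8 and 48.8 CPM with EGF, and 58.6 and 58.8 CPM with HRG. The others called were the cyclin CCNA2, the kinase AURKA and its activator TPX2, topoisomerase TOP2A, and CENPF and ASPM of kinetochore and spindle pole, each by 0.14 to 0.21 log2. TOP2A, CENPF and ASPM were called against vehicle with HRG and not with EGF, for which their changes were 0.0096, -0.06 and -0.02 log2. ANLN kept its call without each of the 4 libraries, UBE2C lost it without EGF replicate 1 (adjusted p = 0.0669, edgeR), and CDK1 without EGF replicate 1, EGF replicate 2 or HRG replicate 2 (0.0648, 0.302 and 0.429).

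In the G1 and DNA replication list 2 of 50 (4%, beside 1.22% of all tested genes) were higher (CCND1 and CDC6) and none lower. The difference was positive for 43 of the 50 in that list, with a median of 0.08 log2. Against vehicle, EGF had raised 47 of its members and HRG 46, and of the 38 mitosis genes 17 and 33, where 9.04% of all tested genes rose with EGF and 13.3% with HRG. CCND1, cyclin D1, had 582 and 604 CPM with vehicle, 779.7 and 827 CPM with EGF and 959 and 953 CPM with HRG. CDC6, a loader of the replicative helicase, was higher by 0.26 log2. Among 18 CDK inhibitors and antiproliferative genes only BTG2 was called (5.56%, beside 2.17% of all tested genes). It was lower with HRG, at 78.4 and 72.1 CPM against 102 and 97.5 CPM with EGF and 123 and 122 CPM with vehicle.

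Promoters of mitosis genes are shown because these genes were called in 1 direction and many are known to carry the cell cycle genes homology region (CHR), written here as TTTGAA on either strand. Of the 9 called mitosis genes, 6 had a promoter in the RefSeq table, and 4 of these held the letters in the 250 bases before the start (ANLN, CDK1, TOP2A and ASPM), as do 13.6% of all 27305 promoters of that length. CCNA2 and CENPF did not hold these exact letters in this window, and variants of them were not searched. Mitosis genes without a call were not counted, so these counts do not bear on the difference between the ligands. Matches are in capitals, and the regions are chr7:36389612-36389861 on the plus strand for ANLN and chr10:60778081-60778330 on the plus strand for CDK1, both GRCh38.p14:

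ANLN: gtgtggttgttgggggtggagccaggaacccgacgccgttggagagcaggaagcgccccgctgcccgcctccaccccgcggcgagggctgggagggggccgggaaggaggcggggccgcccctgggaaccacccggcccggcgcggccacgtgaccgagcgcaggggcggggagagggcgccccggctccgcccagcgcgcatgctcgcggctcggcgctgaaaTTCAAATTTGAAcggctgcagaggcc

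CDK1: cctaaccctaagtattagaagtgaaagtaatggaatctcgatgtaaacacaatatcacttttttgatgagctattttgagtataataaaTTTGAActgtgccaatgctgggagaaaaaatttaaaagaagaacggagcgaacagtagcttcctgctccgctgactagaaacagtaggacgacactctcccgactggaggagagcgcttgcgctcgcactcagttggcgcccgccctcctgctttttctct

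The ANLN match holds the letters on both strands side by side, beginning 26 bases before the start, and the CDK1 match begins 161 bases before it. These too are matches of letters and not measured sites, and neither was shown to be the CHR of its gene.

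Of 26 sterol synthesis genes, 4 (15.4%) were higher with HRG (FDPS, ACAT2, MVD and CYP51A1), beside 1.22% of all tested genes, and none was lower. The difference was positive for 22 of 26, with a median of 0.06 log2. FDPS, which makes farnesyl diphosphate, had 124 and 128 CPM with vehicle, 176 and 167 CPM with EGF and 213 CPM in each HRG library. For 21 of 25 glycolysis genes the difference was positive, with a median of 0.11 log2. Of these 25, 2 (8%, beside 1.22% of all tested genes) were called higher. They were PFKP, a phosphofructokinase, at 241 and 239.8 CPM with HRG against 189 and 199.5 CPM with EGF, and GAPDH by 0.11 log2. The fatty acid list of 24 had SCD and FADS1, both desaturases, higher by 0.14 and 0.18 log2, and GPAT3 lower. These were 12.5% of that list, beside 2.17% of all tested genes called. Without EGF replicate 1 the calls of SCD, FADS1, GAPDH and MVD were lost (adjusted p = 0.428, 0.219, 0.515 and 0.101, edgeR), and without HRG replicate 1 as well (0.268, 0.153, 0.101 and 0.245), while FDPS, ACAT2 and PFKP kept theirs without each of the 4.

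GPAT3, an acyltransferase of triglyceride synthesis, was among the most reduced DEGs. It fell from 5.71 and 4.62 CPM with vehicle to 1.93 and 1.83 CPM with EGF and 0.956 and 0.779 CPM with HRG, 2.18-fold lower than with EGF (adjusted p = 0.0108, edgeR). That call was lost without EGF replicate 1 (adjusted p = 0.155), EGF replicate 2 (0.0617) or HRG replicate 2 (0.257). IGSF21, a synaptic adhesion protein, was called against vehicle with HRG alone, at 2.00 and 2.27 CPM. Its 4.71 and 4.34 CPM with EGF lay below the vehicle values of 5.64 and 5.12 CPM (-0.25 log2, not called). MYRIP, which links vesicles to myosin, fell with both, to 11.3 and 10.7 CPM with EGF and 7.30 and 6.73 CPM with HRG from 17.8 and 17.9 CPM.

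Targets of FOXO factors, which AKT keeps out of the nucleus, included 4 of 25 that were lower with HRG and 1 that was higher, with a median of -0.09 log2. The calls were 20% of that list, beside 2.17% of all tested genes. KLHL24, a ubiquitin ligase adaptor, had 73.6 and 71.1 CPM with vehicle, 37.7 and 37.8 CPM with EGF and 27.8 and 29.6 CPM with HRG. FOXO4 and TXNIP, the latter a brake on glucose uptake, were lower by 0.61 and 0.19 log2, and ERBB3 is the fourth. IRS1, the insulin receptor substrate, went the other way, from 39.7 and 38.4 CPM with vehicle to 48.6 and 49.0 CPM with EGF and 64.8 and 64.4 CPM with HRG. FOXO4 lost its call without any 1 of the 4 libraries (adjusted p from 0.0664 to 0.336, edgeR).

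**Figure D3:**
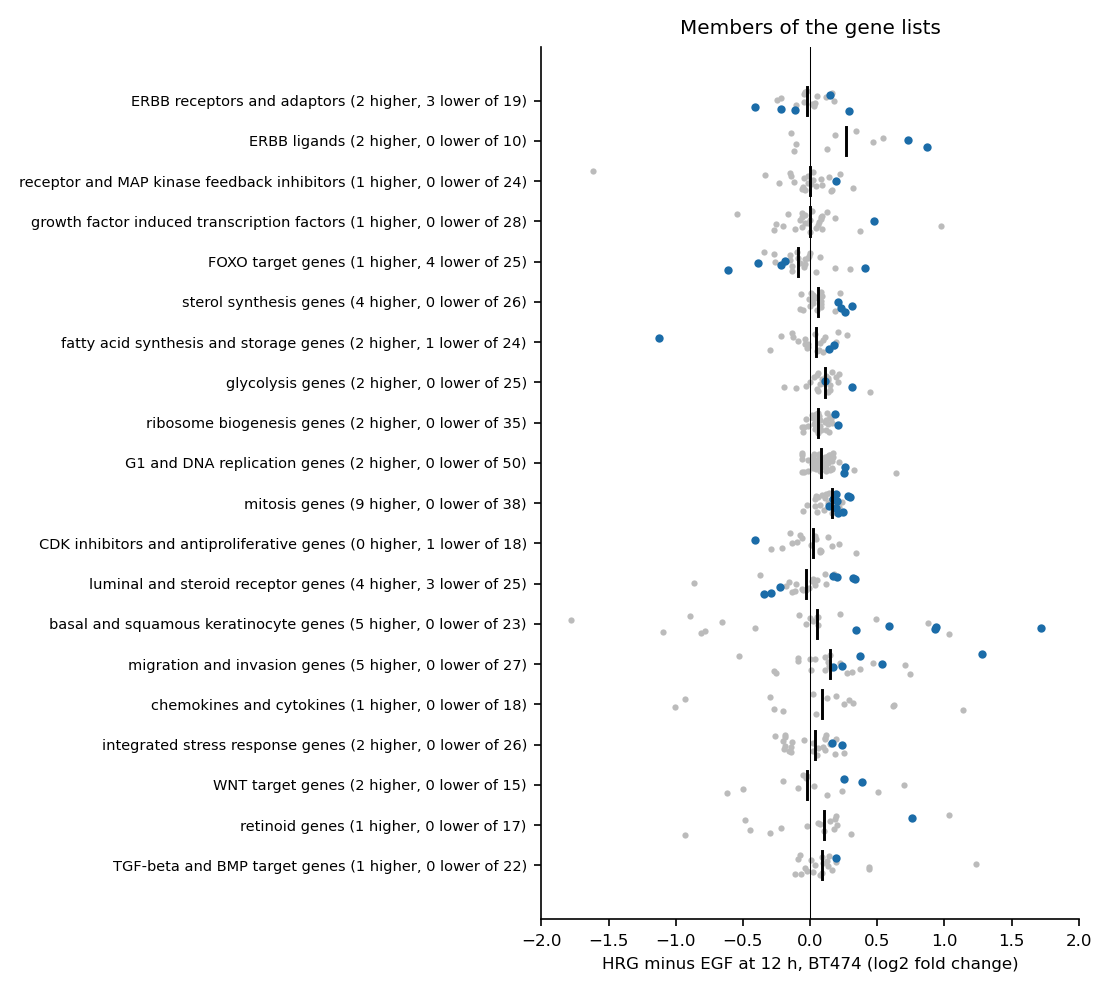
Difference between HRG-BT474 and EGF-BT474 at 12 h on the log2 scale for each measured member of 20 gene lists; blue points passed the test, grey points did not, and black bars mark list medians, with calls of measured members in brackets. Of the 38 mitosis genes 36 lie to the right of 0, the 5 called basal and squamous genes lie to the right of 0 while the uncalled ones lie on both sides, and 5 members beyond 2 log2 units are not drawn.

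Early and feedback genes of the MAP kinase route held 2 calls, 4.17% of the feedback list and 3.57% of the transcription factor list, beside 2.17% of all tested genes. Of 24 receptor and MAP kinase feedback inhibitors only DUSP4, a nuclear MAP kinase phosphatase, was called, with 867 and 872 CPM with EGF and 987 and 999 CPM with HRG, from 483 and 501 CPM with vehicle. Of 28 growth factor induced transcription factors only IER5 was called, 1.39-fold higher with HRG, and that call was lost without HRG replicate 1, HRG replicate 2 or EGF replicate 1 (adjusted p from 0.0564 to 0.293, edgeR). The list medians were -0.0035 and 0.0013 log2. Against vehicle EGF had raised 10 and 9 members of these lists and HRG 10 of each. Over all tested genes 9.04% rose with EGF and 13.3% with HRG. EGF had lowered 2 and 3 members and HRG 1 and 3, where 6.99% and 12.5% of all tested genes fell.

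Further lists held 1 or 2 calls each (4.55% to 13.3% of a list, beside 1.22% of all tested genes), too few to describe a list by its calls. By sign, the difference was positive for 30 of 35 ribosome biogenesis genes, 15 of 26 integrated stress response genes and 7 of 15 WNT targets. It was positive for 16 of 22 TGF-beta and BMP targets, 11 of 17 retinoid genes and 11 of 18 chemokines and cytokines. All these calls were higher with HRG. They were the nucleolar WDR43 and DDX21 among 35 ribosome biogenesis genes (median 0.06 log2), the amino acid transporter subunits SLC7A5 and SLC3A2 among 26 integrated stress response genes (median 0.04), the WNT inhibitor DKK1 with CCND1 among 15 WNT targets (median -0.03), and BMP7 among 22 TGF-beta and BMP targets (median 0.09). ALDH1A3, which makes retinoic acid, was the 1 call among 17 retinoid genes (median 0.10), and rose from 2.66 and 2.62 CPM with vehicle to 8.57 and 9.97 CPM with EGF and 14.6 and 16.5 CPM with HRG. LIF, a cytokine of the interleukin 6 family, was the 1 call among 18 chemokines and cytokines (median 0.09), at 0.739 and 0.779 CPM with HRG and between 0.0355 and 0.247 CPM in the other groups, beside a detection limit of 3 counts, or 0.104 to 0.145 CPM. Of these genes only ALDH1A3 and CCND1 kept their calls without each of the 4 libraries. Without HRG replicate 2 the others had adjusted p from 0.0572 (DKK1) to 0.385 (WDR43) in edgeR, with LIF at 0.119, and without EGF replicate 1 all of them but DKK1 were lost too, from 0.0747 (BMP7) to 0.496 (SLC3A2).

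Genes called against vehicle with HRG alone include the clearest cases in which EGF left a gene near vehicle. PRUNE2, a BCH domain protein, had 11.4 and 12.4 CPM with vehicle and 10.4 and 13.1 CPM with EGF, which overlap, and 22.33 and 22.03 CPM with HRG (log2 0.92 ± 0.13, adjusted p = 2.04e-05, edgeR). EFEMP1, a fibulin of the extracellular matrix, had 2.63 and 2.41 CPM with vehicle, 2.872 and 3.998 CPM with EGF and 8.21 and 7.33 CPM with HRG. The kinase gene STK32B likewise had 3.48 and 2.95 CPM with vehicle, 3.95 and 4.64 CPM with EGF and 7.86 and 8.68 CPM with HRG. For EFEMP1 and STK32B, EGF lay above vehicle by 0.43 and 0.41 log2 without a call. SPDYE5, of the Speedy/RINGO family, had 2.66 and 2.58 CPM with vehicle, 1.44 and 1.92 CPM with EGF and 3.35 and 4.39 CPM with HRG, its fall with EGF missing the threshold (adjusted p = 0.064, edgeR). It was called in opposite directions against vehicle under 4 alternatives, which used no filter, only the libraries compared, or either replicate block, and its difference between the ligands was not called without HRG replicate 2 or EGF replicate 1 (adjusted p = 0.103 and 0.101). It belongs to a family of near-identical copies whose reads the counting may have split, so its values are uncertain.

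The 5 genes that EGF moved further all rose with both ligands, so they too differed in extent. MGP, an inhibitor of calcification, had 141 and 129 CPM with vehicle, 217 and 221 CPM with EGF and 185 and 178 CPM with HRG, a difference of -0.27 ± 0.04 log2 between the ligands (adjusted p = 0.00015, edgeR). BPIFB2, a secreted lipid-binding protein, had 28.2 and 25.9 CPM with EGF and 22.8 and 20.4 CPM with HRG, from 15.1 and 13.9 CPM with vehicle. ABCC11, a transporter of apocrine glands, had 145.1 and 150.03 CPM with EGF against 129 and 120.5 CPM with HRG. FMOD and CADPS2, for a matrix proteoglycan and a vesicle priming factor, were lower with HRG by 0.24 and 0.17 log2. Of the 5, only MGP kept its call without each of the 4 libraries.

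Of the 14 genes called against vehicle with EGF alone, 11 fell with EGF and were higher with HRG than with EGF. LATS2, a kinase of the Hippo pathway, had 7.49 and 8.15 CPM with vehicle, 5.66 and 5.92 CPM with EGF and 9.38 and 8.68 CPM with HRG. KIFC3, a minus-end kinesin, had 9.12 and 8.65 CPM with vehicle, 6.15 and 6.02 CPM with EGF and 9.56 and 9.92 CPM with HRG. In both, HRG was not called against vehicle. CLCA2 and SCGB2A2, the latter encoding mammaglobin A, were higher with EGF than with vehicle by 0.13 and 0.28 log2 and lower with HRG than with EGF by 0.25 and 0.30. CLCA2 was called in opposite directions against vehicle under 3 alternatives, and its difference between the ligands was not called without HRG replicate 2 or EGF replicate 2 (adjusted p = 0.0871 and 0.0518, edgeR). For the 20 genes called with neither, such as CYP2A6 and KCNJ11, the vehicle mean lay between the ligands and each ligand's own change was below the threshold. No call among the 5 genes named from that class (CYP2A6, UBE2QL1, POMK, KCNJ11 and NUDT8) survived leaving out EGF replicate 1 (adjusted p from 0.304 to 0.398, edgeR).

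Transcript length and GC content are given by direction, without a test. By the longest GENCODE transcript, genes higher with HRG had a median length of 5023 bases and a median GC content of 46.8%, and genes lower with HRG 3882 bases and 52.3%, beside 4132 bases and 47.3% over tested genes with a mean of at least 10 CPM. Their part in the difference between the ligands was not tested.

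The same comparison was made in libraries of other times and of BT474R. The 1 h and 24 h libraries did not enter the 12 h means, but they shared the filter and the estimate of spread behind the 12 h calls, since all 20 BT474 libraries were fitted together. At 1 h HRG and EGF differed at 35 genes (0.139%), at 24 h at 193 (0.768%), and in BT474R at 12 h at 345 (1.42%). With HRG, 52 were higher (0.207%) and 141 lower (0.561%) at 24 h, and 67 higher (0.276%) and 278 lower (1.14%) in BT474R. Of the 239 genes lower with HRG at 12 h, 92.5% had a difference of the same sign at 24 h and 71.5% at 1 h. For the 306 higher, these were 75.8% and 65.4%, and over all tested genes 59.5% and 54.6%. The 24 h count depended on 1 library, rising to 708 genes without EGF replicate 2 of that time. The 1 h count fell to between 15 and 23 without EGF replicate 1, HRG replicate 1 or HRG replicate 2 of that time, and the BT474R count to between 104 and 198 without any 1 of its 4 libraries.

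Calls made at both 12 h and 24 h numbered 84, which is 15.4% of the 12 h calls and 43.5% of the 24 h calls, and 83 of them had the same sign. MYRIP was lower with HRG again at 24 h, by 0.69 log2, and TNC and AREG higher by 0.39 and 0.44. AREG was also called at 1 h, 0.78 log2 higher with HRG (adjusted p = 1.51e-07, edgeR), with DKK1 and ADAMTS1 as the others called at both 1 h and 12 h. KRT17 differed by 0.02 log2 at 24 h (not called), and its change from 12 h to 24 h missed the threshold (adjusted p = 0.081, edgeR). ERBB4, at -0.12 log2, was not called at 24 h, and ERBB3 was (-0.15 log2, adjusted p = 0.0454, edgeR).

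The change of the difference from 12 h to 24 h was itself tested, and 38 genes were called (0.151%), of which 36 were DEGs at 12 h. Since the 12 h libraries enter this test as well, the 36 are not independent of the 12 h calls. The difference was smaller in size at 24 h for 35 of the 36, and 34 of them were higher with HRG at 12 h. They include, chosen after their values were seen, the keratins KRT8, KRT18, KRT19 and KRT80, actin and its partners ACTB, ACTN4, FLNA and MYH9, and the metabolic enzymes FDPS, ACAT2 and PFKP. KRT8 went from a difference of 0.33 log2 at 12 h to 0.04 at 24 h, and STK32B from 0.95 to -0.38. Leaving out 1 library moved the count to between 8 and 18 (any of the 4 at 12 h), or to 75 or 83 (EGF replicate 1 or 2 at 24 h).

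**Figure D4:**
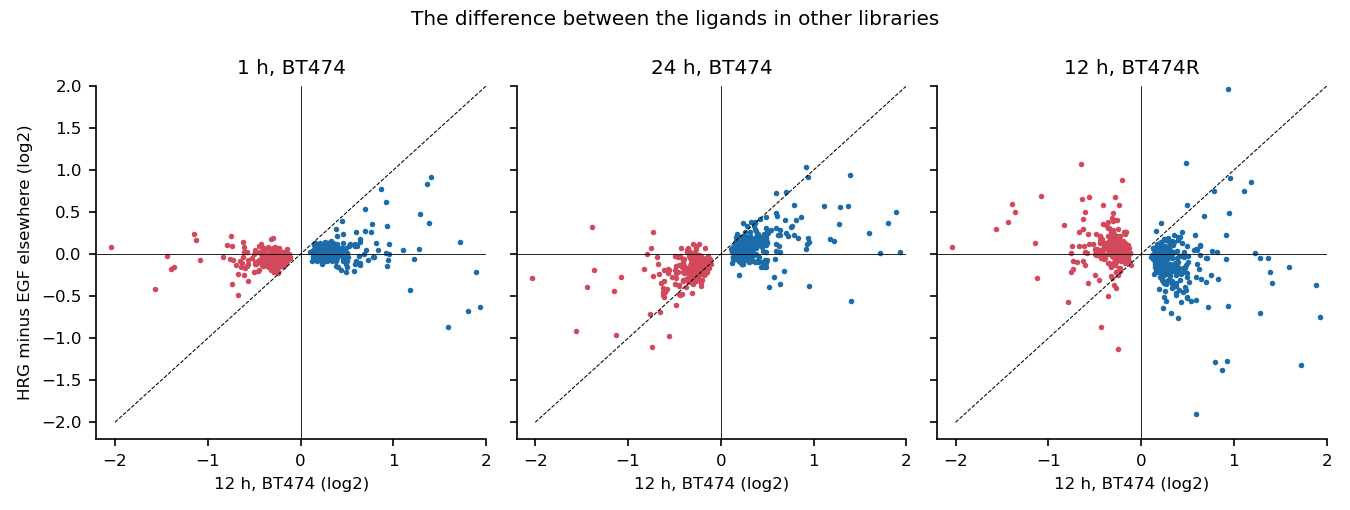
Difference between HRG and EGF on the log2 scale at 12 h in BT474 (horizontal axes) and in other libraries (vertical axis): 1 h and 24 h in BT474 and 12 h in BT474R, with genes higher with HRG at 12 h in BT474 in blue and lower in red; the dashed line marks equal differences. Values at 24 h keep the sign for most genes but lie nearer 0, and in BT474R most lie on the other side of 0.

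In BT474R the sign was more often the opposite one. Of the 302 genes higher with HRG in BT474 that were tested in BT474R, 29.8% had the same sign there, and of the 239 lower 27.2%, beside 46.1% over all genes. Calls in both lines numbered 53 (9.72% of the BT474 calls and 15.4% of the BT474R calls), of which 48 were opposite in sign: 33 higher in BT474 and 15 higher in BT474R. AREG, higher with HRG in BT474, was lower with HRG in BT474R by 1.37 log2 (adjusted p = 0.0055, edgeR), KRT16 by 1.27 and LAMB3 by 0.56. MYRIP and ERBB4, lower with HRG in BT474, were higher with HRG in BT474R by 1.07 and 0.58 log2.

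Tested as a difference between the lines, 574 genes were called (2.33%), among them 229 of the 545. This test also uses the BT474 libraries at 12 h. For AREG the difference between the lines was -2.24 log2 and for KRT17 -3.04 (BT474R minus BT474, adjusted p = 3.12e-07 and 9.39e-06, edgeR). The count was between 267 and 399 when 1 of the 8 libraries was left out.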

How the data were processed

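RNA-seq of BT474 and BT474R was analysed from the whole-number counts per gene that the authors deposited. Per the labels and methods, reads were trimmed with Trim Galore 0.6.6, checked with FastQC and MultiQC, and counted against GRCh38 with featureCounts. The annotation release and strand setting are not given in the sources used here, so reads of overlapping and antisense genes cannot be told apart. Names that repeat another with a number added (5078 of 44584) were kept as separate genes and were not named.

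Tested genes (25146) were those counted at least 1 time in no fewer than 50% of the 20 BT474 libraries. Counts were scaled by TMM factors and fitted with edgeR 4.0.16 (R 4.3.3, limma 3.58.1) in its quasi-likelihood test, with 1 mean per group over all 20 libraries and Benjamini-Hochberg adjustment over all genes tested. The SE of a log2 fold change was derived from it and its F statistic. BT474R was fitted on its own 20 libraries, and the difference between the lines on all 40. Intervals of counting error were not computed. The detection limit was fixed at 3 counts per library, and depth sets its value in CPM.

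Replicate numbers were not used to pair samples: deviations from the group means of same-numbered libraries correlated between -0.07 and 0.30 over 45 pairs of groups, above 0.1 in 8. Genes named are the 12 DEGs most changed in each direction, given a mean of 1 CPM or more and no overlap between groups, the 5 such genes of each class, up to 3 called members per list and direction, and all ERBB receptors, adaptors and ligands. Other genes named were chosen after their values were seen, and 1 gene that the rule picks is not reported here. The comparison, gene lists and classes were chosen with earlier results of these data known. Alternatives were DESeq2 1.42.0, other scalings, filters and fits, thinned counts and leaving out each library.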

Additional observations from a re-analysis of the deposited data

Results flagged for a closer look

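The results here are those for which a test of the change in the HRG minus EGF difference, between time points or between lines, passed an adjusted p of 0.05 in edgeR's quasi-likelihood test. They share the BT474 libraries at 12 h that chose the genes, so they are not independent of that choice.

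From 12 h to 24 h in BT474 the difference changed at 38 genes. Among the genes named, the change (24 h minus 12 h) was -1.33 log2 at STK32B, -0.86 at PRUNE2, -0.99 at LATS2, -0.40 at FDPS, -0.33 at ACAT2 and -0.28 at PFKP. At the simple keratins it was -0.30 at KRT8, -0.25 at KRT18 and -0.19 at KRT19. At BTG2 it was 0.35.

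Between BT474R and BT474 at 12 h the difference was unequal at 574 genes. For genes higher with HRG in BT474, the value in BT474R minus that in BT474 was -3.04 log2 at KRT17, -1.98 at L1CAM, -1.55 at SYNPO, -2.202 at KRT16, -1.10 at LAMB3, -0.48 at TNC and -0.998 at ALDH1A3. For the ligands and signalling genes it was -2.24 at AREG, -1.35 at BTC, -0.21 at PTPN11, -0.37 at DUSP4, -0.86 at IER5 and -0.83 at IRS1. For growth and metabolic genes it was -0.49 at FDPS, -0.51 at PFKP, -0.35 at DDX21, -0.35 at SLC7A5, -0.27 at SLC3A2, -0.59 at CCND1, -0.45 at UBE2C and -0.36 at CDK1, and it was -0.53 at KRT8 and -0.64 at KRT18.

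For genes lower with HRG in BT474 the same quantity was above 0. It was 0.99 log2 at ERBB4, 0.26 at ERBB3, 0.65 at ESR1, 0.54 at PGR, 0.71 at FOXO4 and 0.47 at BTG2. Among the most lowered genes it was 1.99 at THBS3-AS1, 1.28 at HOXB6, 1.78 at IGSF21, 0.94 at CYP2U1, 0.76 at LPIN3 and 1.72 at MYRIP. At BPIFB2, which EGF moved further, it was 0.43. BT474R is 1 clone, so the line and the clone cannot be told apart.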

How the results depend on the processing

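Of the 80 called genes recomputed under the alternatives, 0 changed direction and 21 kept their call wherever an adjusted p was given. With DESeq2, 61 kept their call and 11 lost it. The rest, KRT17 among them, had no adjusted p from DESeq2 and were not compared there. With no filter on low counts, 473 genes were higher with HRG at 12 h, and calls numbered 96 at 1 h, 402 at 24 h, 97 for 12 h against 24 h and 628 in BT474R, with 3 genes called in opposite directions (SPDYE5, AHNAK and SLC7A8). Fitting only the libraries compared gave 760 higher, 482 lower, 116 list members, 12 calls at 24 h, 11 for 12 h against 24 h, 1676 between lines and 5 opposite (these 3, CLCA2 and MUCL1). That fit gave 0 calls at 1 h in edgeR, with 1263 genes at an unadjusted p under 0.05. A fit of all 40 libraries gave 175 higher, 84 lower and 30 list members. With a vehicle library for each ligand, chosen after seeing the data, 1 gene (CLCA2) was opposite in 1 of the 2 assignments. The causes were not tested.

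The replicate numbers were not shown to pair the libraries. With a replicate block 362 genes were higher and 278 lower, and 1 was opposite (SPDYE5). With a block within each time point there were 506 higher, 400 lower, 92 list members, 83 calls at 1 h, 429 at 24 h, 105 for 12 h against 24 h and 3 opposite (SPDYE5, CLCA2 and SLC7A8). Genes opposite under an alternative were named after their values were seen.

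Leaving out 1 library at a time gave 97 to 275 higher, 53 to 204 lower, 28 to 57 list members, 2594 to 4060 calls for EGF and 4547 to 6448 for HRG against vehicle, 15 to 34 at 1 h, 151 to 708 at 24 h, 8 to 83 for 12 h against 24 h, 104 to 198 in BT474R and 267 to 399 between lines. HRG was further for 85.3% to 91.5% of the calls. DESeq2 called 253 higher and 177 lower.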
